A study of Mus musculus with 8 samples.

Results

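The tumour suppressor p53 (Trp53) is a transcription factor that answers DNA damage and other stress by switching on a shared set of target genes. A set of 10 such targets was followed here in mouse embryonic stem (ES) cells treated to degrade OCT4 or deprived of LIF. The members are known p53 targets, named by symbol with no threshold on these measurements but with earlier results of these data known: Phlda3, Ccng1, Btg2, Bax, Bbc3, Pmaip1, Perp, Zmat3, Trp53inp1 and Aen, 10 of 24921 gene symbols in the count tables. Of the 10 members, 9 passed the filter on low counts. Aen had 3 reads over all libraries and was not tested.

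In resting cells p53 is kept low by the ubiquitin ligase Mdm2, itself a p53 target, and stress signals release it. The targets divide by role. Some slow the cell cycle or dampen growth signals, some open the mitochondrial route to apoptosis through the BCL2 family, and some act on membranes or on RNA. ES cells hold p53 protein at a high level for a dividing cell, and p53 has been tied to their exit from self-renewal as well as to the removal of damaged cells.

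RNA-seq was available for 8 libraries, 2 in each of 4 groups, of V6.5 cells, a C57BL/6 by 129 hybrid mouse ES cell line kept in 2i medium on gelatin. In OCT4-FKBP cells, OCT4 carries the FKBP tag through which a dTAG compound directs the protein to degradation. These cells received DMSO or the compound labelled dTag9 for 24 h. Untagged V6.5 cells (WT) had normal LIF, the cytokine that sustains self-renewal, or had LIF withdrawn for 5 days. No untagged cells received the compound and no tagged cells lost LIF. The labels do not say whether the tagged line is 1 clone or whether replicates are separate cultures. The p-values therefore judge group differences only against the variation of these libraries within their groups, and that variation could be technical.

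Levels are given as CPM, read counts scaled to a common library size with TMM factors, and the 2 replicates of each group are listed in order. A call means a Benjamini-Hochberg adjusted p under 0.05 in edgeR's quasi-likelihood test over 10311 genes. CPM does not correct for transcript length, so levels are compared between groups for a gene and not between genes. In bulk RNA, fewer cells with a transcript and less of it in each cell cannot be told apart. Library totals ran from 7221451 to 11447468 counted reads. Reads outside annotated features made up 10.4% to 11.2% of uniquely aligned reads without LIF and 12.7% to 14.9% in the other groups, and the part of this in the results was not tested.

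Of 10 tested pluripotency markers, 9 fell with dTAG, and 8 fell and 2 (Tdgf1 and Utf1) rose without LIF. The summed level of this list was 7703 and 7763 CPM (lower and higher library) with DMSO and 8345 and 8440 with LIF. It was 2525 and 2541 CPM with dTAG and 2409 and 2448 CPM without LIF. The last 2 groups reached their sums through different genes. Tdgf1 was at 45.5 to 54.2 CPM with dTAG and 1136 to 1143 without LIF. Tfcp2l1 was at 1026 to 1028 CPM with dTAG and 91.4 to 100 without LIF. Nanog, a defining marker with 4 accessions, had no read. Pou5f1, the gene of OCT4, was at 77.5 to 77.8 CPM with DMSO, 84.6 to 90.2 with dTAG, 336 to 425 with LIF and 170 to 205 without LIF. Reads shared between Pou5f1 transcripts were not counted, so these levels are partial. The compound removes protein, so the level of Pou5f1 RNA does not check its action. Fibroblast markers summed to 21.3 to 23.4 CPM with DMSO, 16.3 to 19.2 with dTAG, 9.09 to 9.29 with LIF and 19.8 to 20.4 without LIF. Of 4 tested, 1 rose and 1 fell with dTAG, beside 20.1% and 20.3% of all tested genes. Without LIF 3 rose and 0 fell, beside 34% and 34.4%. Col1a2 was at 0.53 to 0.82 CPM with LIF and 6.66 to 7.09 without it. Col3a1, a fibrillar collagen of fibroblasts, was at 0 to 1.23 CPM, highest without LIF. Thy1 carried most of the sum with DMSO, dTAG and LIF. It was at 15.58 to 18.95 CPM with DMSO, 12.2 to 14.88 with dTAG, 5.88 to 6.44 with LIF and 6.27 to 7.51 without LIF. Thy1 was not called without LIF (edgeR adjusted p = 0.447). With DMSO it was 2.74-fold above WT with LIF (edgeR adjusted p = 2.12e-07). Col1a1 was the marker that fell with dTAG. Dcn and Postn, with 2 and 5 accessions, had no read. Trophoblast markers, which include the epithelial keratins Krt8 and Krt18, were lowest with LIF (a sum of 19.7 CPM in the lower library). They summed to 56.6 to 58.8 CPM with DMSO, 233 to 255 with dTAG and 1323 to 1427 without LIF. Different genes carried these sums: Cdx2 was at 30.74 to 35.03 CPM with DMSO and 169 to 192 with dTAG but at 0.53 to 1.06 with LIF and 1.5 to 2.73 without it, where Krt8 and Krt18 made up nearly all of the sum. Of 7 such markers, Gata3 had no read and Elf5 had 1, but both have several accessions, a case in which these tables lose shared reads. Of the primitive endoderm markers, Gata6 was at 16.9 to 20.6 CPM with dTAG and at most 3.27 CPM in the other groups. Sox7 had no read with dTAG and was highest without LIF, at 2.45 to 2.73 CPM. Gata4 and Foxa2, which have 2 and 3 accessions, had no read in any library. The part of these cell types in the members' changes was not tested.

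The promoter windows of the members are shown first because p53 acts by binding a pair of decamers, each 10 bases long, which make an element of 20 positions when no spacer lies between them. RefSeq windows (build GRCm38.p6, from 250 bases before to 50 after the annotated start) were at hand for 6 of the 10 members, in 9 windows. The best match to the p53 consensus, read over both strands because the consensus is its own reverse complement, is given for each of the 6 genes, with the bases that fit in capitals.
Ccng1: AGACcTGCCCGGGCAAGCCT
Aen: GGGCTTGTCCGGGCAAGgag
Bax: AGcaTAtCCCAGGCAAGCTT
Bbc3: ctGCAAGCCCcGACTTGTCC
Btg2: GGGaAAGTCCGGGCAgagCC
Phlda3: GGcCcTGTCCGGGCggGTgC

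The Ccng1 element, at chr11:40755462-40755481 on the minus strand and 195 to 176 bases before the start, matched at 19 of 20 positions. Only 0.0884% of 32817 promoter windows held a match as good. Aen, Bax and Bbc3 each matched at 17 positions, as did or exceeded 6.29% of all windows. That share counts single windows, whereas the best of 3 windows was taken for Bbc3 and of 2 for Aen. It is therefore too low a background for these 2 genes. The Bbc3 element lay at chr7:16309486-16309505 on the plus strand, 97 to 78 bases before a start, and the Bax element at chr7:45467090-45467109 on the minus strand, 211 to 192 bases before it. The Aen element spanned bases 11 to 30 after a start. Btg2 matched at 16 positions (30.2% of windows did as well) and Phlda3 at 15 (76.6%). A complete decamer was found in 4 of the 9 member windows and in 8.36% of all windows; the windows of Aen overlap and share 1 decamer, so these are 3 sites in 3 genes (Ccng1, Bax and Aen), and the 4 letters CATG, a common decamer core, were found in 2 of the 9 and in 61.1%. These are matches of letters in a short window and say nothing of binding in these cells. For context, the 250 bases before the start of Ccng1 (chr11:40755287-40755536, minus strand) read as follows, with the complete decamer in capitals.
Ccng1 promoter: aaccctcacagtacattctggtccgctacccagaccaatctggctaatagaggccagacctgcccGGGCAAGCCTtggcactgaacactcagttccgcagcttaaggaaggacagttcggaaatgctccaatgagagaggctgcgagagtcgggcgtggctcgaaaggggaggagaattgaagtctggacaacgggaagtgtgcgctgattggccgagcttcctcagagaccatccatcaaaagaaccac

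The first comparison asked what 24 h of dTAG did to the targets in OCT4-FKBP cells. Among the 9 tested members 5 rose (Phlda3, Btg2, Ccng1, Perp and Bbc3), 2 fell (Zmat3 and Pmaip1), and Bax and Trp53inp1 were not called. Over all tested genes, 20.1% were called higher, 20.3% lower and 40.5% in either direction. The median log2 fold change of the 9 members was 0.57, against 0.00 for all tested genes. The second comparison asked the same of 5 days without LIF in WT cells. There 5 members rose (Perp, Pmaip1, Ccng1, Bbc3 and Btg2), 3 fell (Phlda3, Zmat3 and Bax) and Trp53inp1 was not called. With 68.4% of all tested genes called, 34% higher and 34.4% lower, most genes moved in this comparison. The members' median was 0.20 (the value of Btg2), against -0.02 for all tested genes. The difference between the responses (dTAG minus no LIF, on the log2 scale) was called for 7 of 9 members, 4 with a higher response to dTAG and 3 with a lower one, where 55% of all tested genes were called (28.6% higher, 26.4% lower). Its median was 0.24 for the members (the value of Bax) and 0.02 for all tested genes.

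**Figure D1:**
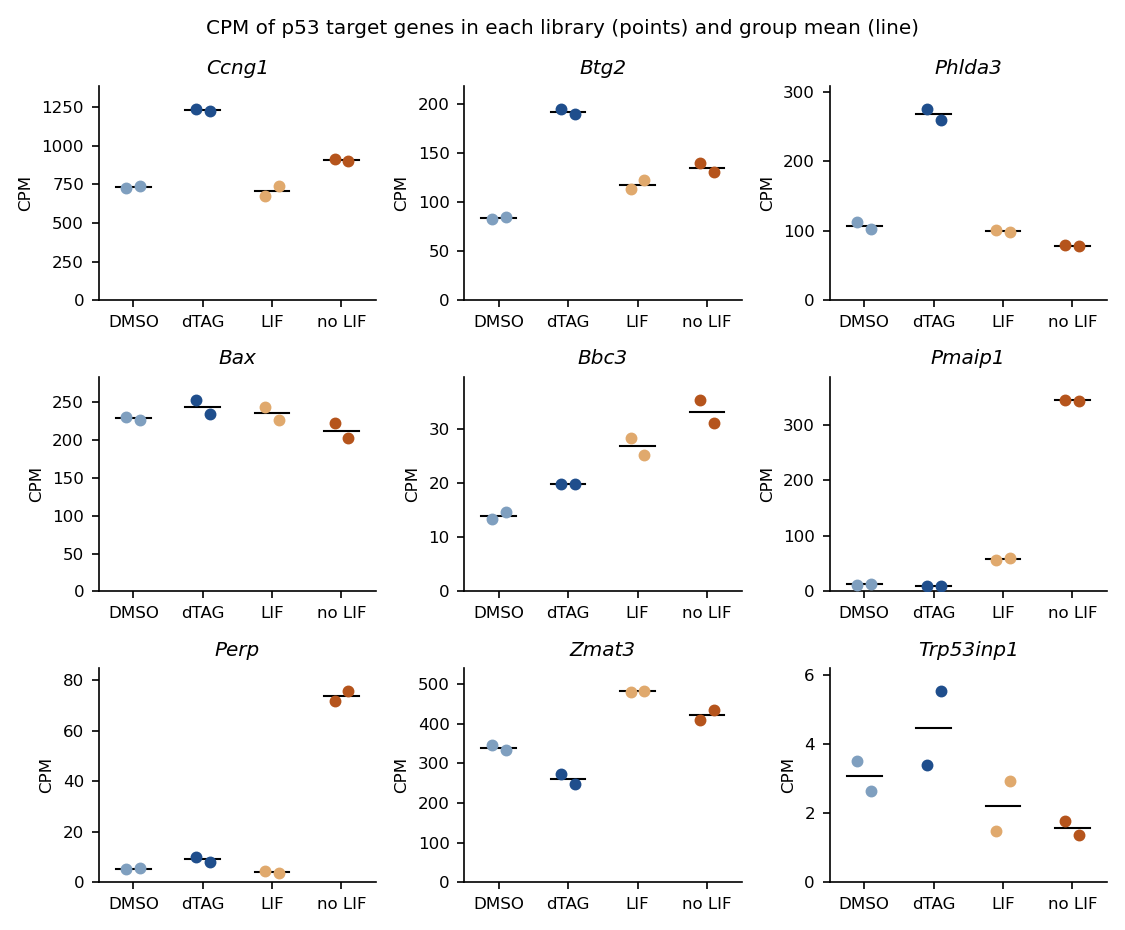
CPM (vertical axes, each starting at 0) of the 9 tested p53 targets in the 4 groups; points are libraries and lines are group means. Ccng1, Btg2 and Phlda3 are highest with dTAG, whereas Pmaip1 and Perp are highest without LIF at 344 and 73.6 CPM.

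The 3 largest rises with dTAG were those of Phlda3, Btg2 and Ccng1, although Ccng1 (log2 fold change 0.75) was close to Perp (0.73). Phlda3 encodes a small protein with a pleckstrin homology domain that keeps the kinase Akt from membrane lipids. It was read at 112 and 102 CPM with DMSO, 275 and 260 with dTAG, 101 and 98.6 with LIF and 79.7 and 77.6 without LIF. Both dTAG libraries were above all 6 others, and both libraries without LIF were below all others. The change with dTAG was 2.51-fold upward (log2 fold change 1.33, SE 0.06, edgeR adjusted p = 3.42e-15). Without LIF it fell 1.27-fold (log2 fold change -0.35, SE 0.07, edgeR adjusted p = 0.000103). The responses had opposite signs and their difference was called (1.67 on the log2 scale, SE 0.10, edgeR adjusted p = 5.11e-14). With DMSO and with LIF the levels were close, at 107 ± 7.19 and 100 ± 2.02 CPM (SD, n = 2 each; log2 difference 0.09, 95% interval -0.05 to 0.23).

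Btg2, an antiproliferative protein that recruits the CCR4-NOT deadenylase to transcripts, showed the next largest rise with dTAG. Its CPM were 82.8 and 84.9 with DMSO, 195 and 189 with dTAG, 114 and 122 with LIF, and 140 and 130 without LIF. The 4 groups did not overlap, in the order DMSO, LIF, no LIF, dTAG. It was 2.29-fold higher with dTAG than with DMSO (log2 fold change 1.19, SE 0.07, edgeR adjusted p = 5.46e-14). It was 1.15-fold higher without LIF (0.20, SE 0.07, edgeR adjusted p = 0.00765), a call lost without WT LIF replicate 1 (adjusted p = 0.0879) and without WT no LIF replicate 1 (adjusted p = 0.102). The difference between responses was 0.99 (SE 0.09, edgeR adjusted p = 1.16e-09). In the tagged line with DMSO it was 1.4-fold lower than in WT with LIF (edgeR adjusted p = 2.83e-06), so the dTAG libraries had risen from the lowest group to the highest.

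Ccng1, which encodes cyclin G1, a partner of protein phosphatase 2A in the control of Mdm2, rose in both comparisons. DMSO libraries held 730 and 736 CPM and dTAG libraries 1237 and 1224. With LIF the values were 674 and 738, and without LIF 914 and 899. The DMSO and LIF groups overlapped, and the other groups stood apart. The rise was 1.68-fold with dTAG (log2 fold change 0.75, SE 0.05, edgeR adjusted p = 5.53e-12) and 1.29-fold without LIF (0.36, SE 0.05, edgeR adjusted p = 9.47e-07). The larger response to dTAG was called as a difference (0.39, SE 0.07, edgeR adjusted p = 8.13e-05). Its promoter window holds the closest match to the p53 element among those shown above, and the part of that match in its rises was not tested.

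Members of the mitochondrial route to apoptosis did not move as a block. Bax is the effector that forms pores in the outer mitochondrial membrane. It was read at 231 and 226 CPM with DMSO, 253 and 234 with dTAG, 244 and 226 with LIF, and 222 and 202 without LIF. Its group means spanned 1.15-fold, the narrowest range of the 9 tested members. With dTAG no change was called (log2 fold change 0.09, 95% interval -0.03 to 0.22, edgeR adjusted p = 0.244). Without LIF it was 1.11-fold lower (-0.15, SE 0.06, edgeR adjusted p = 0.0387), a call that 9 of 17 alternatives did not keep, among them DESeq2's size factors (adjusted p = 0.147) and leaving out OCT4-FKBP DMSO replicate 1 or 2, OCT4-FKBP dTAG replicate 2, WT LIF replicate 1 or WT no LIF replicate 2 (adjusted p from 0.0514 to 0.393). The difference between responses (0.24, SE 0.09, edgeR adjusted p = 0.0226) was likewise lost in 7 of 16 alternatives, 5 of them leaving out a library (OCT4-FKBP DMSO replicate 1 or 2, OCT4-FKBP dTAG replicate 1, WT LIF replicate 1 or WT no LIF replicate 2).

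Bbc3 encodes PUMA, a BH3-only protein that sets Bax and Bak free to act. The DMSO libraries held 13.3 and 14.6 CPM and the dTAG libraries 19.8 and 19.7. WT libraries held 28.3 and 25.1 CPM with LIF and 35.3 and 31.0 without it. No group overlapped another, and all 4 WT libraries were above all 4 of the tagged line. It rose 1.4-fold with dTAG (log2 fold change 0.49, SE 0.13, edgeR adjusted p = 0.00385) and 1.24-fold without LIF (0.31, SE 0.11, edgeR adjusted p = 0.0123). The second call was lost without WT LIF replicate 2 (adjusted p = 0.0516) and without WT no LIF replicate 1 (adjusted p = 0.194). A difference between these responses was not called (0.18, 95% interval -0.18 to 0.53). The larger contrast was between the lines, where DMSO was 1.90-fold below WT with LIF (-0.93, SE 0.12, edgeR adjusted p = 1.32e-06).

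Pmaip1 encodes NOXA, a BH3-only protein that occupies the survival factor MCL1, and it went against Bbc3 in the tagged line. CPM were 12.4 and 13.6 with DMSO and 9.52 and 9.32 with dTAG. In WT cells they were 56.3 and 60.3 with LIF and 344 and 343 without LIF. The 4 groups were ordered dTAG, DMSO, LIF, no LIF with no overlap, over a 36.5-fold range of means, the widest of the 9 tested members. With dTAG it fell 1.39-fold (log2 fold change -0.47, SE 0.13, edgeR adjusted p = 0.00625), a call lost without OCT4-FKBP DMSO replicate 2 (adjusted p = 0.121). Without LIF it rose 5.90-fold (2.56, SE 0.07, edgeR adjusted p = 1.51e-21), and the difference between responses was -3.03 (SE 0.15, edgeR adjusted p = 3.58e-15). The tagged line with DMSO was 4.45-fold below WT with LIF (edgeR adjusted p = 3.61e-15). Tag, clone, DMSO and culture cannot be told apart in that contrast.

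**Figure D2:**
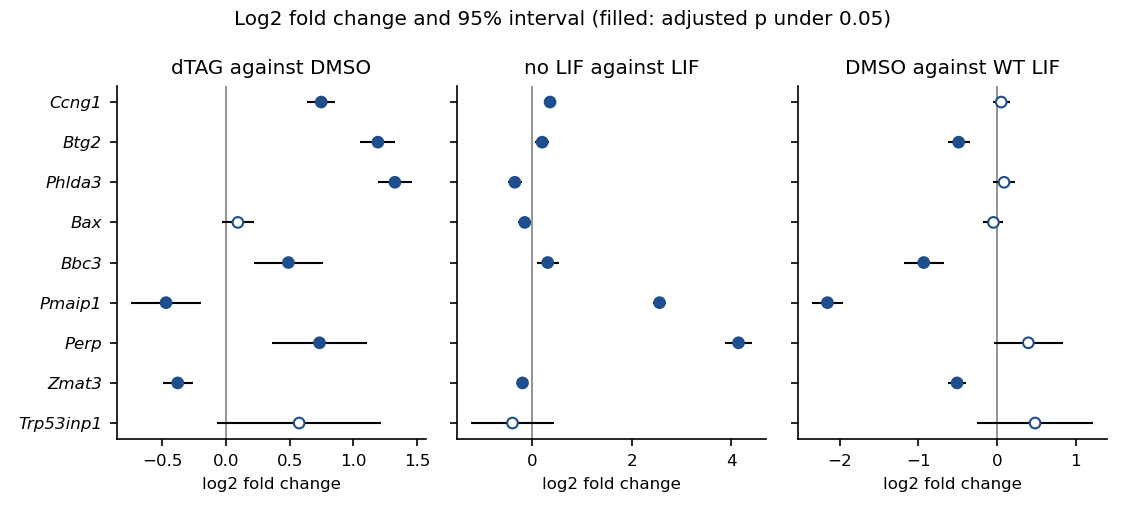
Log2 fold change (horizontal axes, with a scale of its own in each panel) and 95% interval of the 9 tested p53 targets in 3 comparisons; filled points have an adjusted p under 0.05. Phlda3 lies at 1.33 with dTAG and -0.35 without LIF, and Pmaip1 at -0.47 and 2.56.

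The members that act on membranes and RNA also parted. Perp is a tetraspan membrane protein that p53 induces in apoptosis and that desmosomes of stratified epithelia need. It was low in 3 groups, with 5.19 and 5.63 CPM with DMSO, 10.1 and 8.10 with dTAG and 4.33 and 3.88 with LIF. Without LIF it reached 71.5 and 75.7 CPM, above all 6 other libraries. That rise was 17.7-fold (log2 fold change 4.15, SE 0.14, edgeR adjusted p = 1.31e-19), the largest of any member in either response. With dTAG the rise was 1.66-fold (0.73, SE 0.18, edgeR adjusted p = 0.00185), a call lost without OCT4-FKBP dTAG replicate 1 (log2 fold change 0.56, adjusted p = 0.059). The difference between responses was -3.41 (SE 0.25, edgeR adjusted p = 9.36e-12). Epithelial keratins moved with Perp, Krt18 at 7.68 to 8.0 CPM with LIF and 823 to 878 CPM without it, and Krt8 at 9.29 to 10.9 CPM and 477 to 521 CPM, and the part of epithelial cells in the Perp result was not tested.

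Zmat3, a zinc finger RNA-binding protein that regulates splicing and transcript stability, fell in both responses. It was read at 345 and 333 CPM with DMSO and 272 and 249 with dTAG, and at 481 and 482 CPM with LIF and 410 and 434 without LIF. The 4 groups did not overlap, and the tagged line was below WT in every library. It fell 1.30-fold with dTAG (log2 fold change -0.38, SE 0.06, edgeR adjusted p = 4.62e-06). Without LIF it fell 1.14-fold (-0.19, SE 0.05, edgeR adjusted p = 0.00328), a call lost without WT no LIF replicate 1 (adjusted p = 0.0542). The difference between responses passed narrowly (-0.19, SE 0.08, edgeR adjusted p = 0.046), and 6 of 16 alternatives did not keep it, among them leaving out OCT4-FKBP DMSO replicate 1 or 2, OCT4-FKBP dTAG replicate 2 or WT no LIF replicate 2 (adjusted p from 0.0692 to 0.275). A long noncoding RNA, 4930429B21Rik, overlaps Zmat3 in RefSeq's GRCm38 annotation. It was counted apart from Zmat3, with log2 fold changes of -1.72 with dTAG and 0.99 without LIF. With the strand setting of the counting unknown, how reads in the overlap were assigned cannot be told.

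The remaining pair of members was poorly counted. Trp53inp1, a stress-induced protein that promotes p53 phosphorylation and autophagy, has 2 accessions, and all of its 209 reads were assigned to 1 of them. Its CPM were 3.51 and 2.64 with DMSO, 3.39 and 5.55 with dTAG, 1.5 and 2.94 with LIF, and 1.79 and 1.36 without LIF. Neighbouring groups overlapped throughout, and the 95% intervals were wide (-0.07 to 1.22 with dTAG, -1.22 to 0.44 without LIF). Aen, a nuclease that promotes apoptosis, has 4 accessions and had 2 reads in a dTAG library and 1 in a LIF library, so its level cannot be read from these tables. The other 8 members have 1 accession each. Cdkn1a, the best known p53 target, is also split between accessions, with 1.97 and 4.58 CPM with DMSO, 12.6 and 10.1 with dTAG, 7.24 and 6.00 with LIF, and 0.94 and 0.82 without LIF. Its high in dTAG and low without LIF follow the order of group extremes seen for Phlda3.

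**Figure D3:**
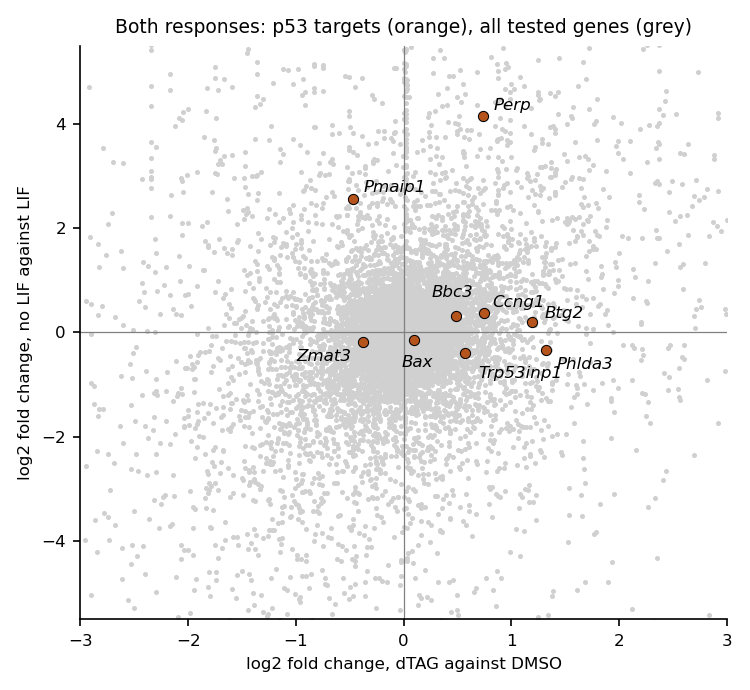
Log2 fold change with dTAG (horizontal axis) against log2 fold change without LIF (vertical axis) for the 9 tested p53 targets (orange) and all tested genes (grey), of which 517 lie outside the axes. Perp and Pmaip1 are set apart upward at 4.15 and 2.56, Btg2 and Phlda3 to the right at 1.19 and 1.33, and Bax lies near the centre.

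The DMSO-treated tagged line also differed from WT cells with LIF. Of 9 tested members, 4 were lower with DMSO than in WT with LIF (Pmaip1, Bbc3, Zmat3 and Btg2), 0 were higher and 5 were not called. Over all tested genes 22.1% were called lower, 18.5% higher and 40.6% either way by edgeR. At leave-one-out, Ccng1 alone was called higher, without WT LIF replicate 2 (log2 fold change 0.15, adjusted p = 0.0188). The members' median log2 difference was -0.04, against -0.03 for all tested genes. The comparison shares its DMSO libraries with the dTAG response and its LIF libraries with the LIF response.

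Among p53 and its regulators, 20 of 28 listed genes were tested. With dTAG 6 rose, 5 fell and 9 were not called, and without LIF 7 rose, 8 fell and 5 were not called. Over all tested genes 20.1% were called higher and 20.3% lower with dTAG, and 34% and 34.4% without LIF. The list medians were 0.05 and -0.12 on the log2 scale, against 0.00 and -0.02 for all tested genes. Trp53 itself has 2 accessions and few reads, with 3.65 and 4.14 CPM with DMSO, 3.5 and 4.88 with dTAG, 2.56 and 2.94 with LIF and 5.29 and 4.77 without LIF. The groups overlapped in the tagged line, and both libraries without LIF were above both with it. No change was called with dTAG (log2 fold change 0.09, SE 0.26, edgeR adjusted p = 0.823), and it rose 1.86-fold without LIF (0.89, SE 0.26, edgeR adjusted p = 0.00388). The p53 protein, through which most of its control runs, was not measured.

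Mdm2, also with 2 accessions, was read at 3.65 and 3.17 CPM with DMSO, 5.14 and 2.88 with dTAG, 5.91 and 6.23 with LIF and 4.10 and 4.91 without LIF. It was not called in either response (edgeR adjusted p = 0.506 and 0.103). Mdm4, a relative of Mdm2 that masks the p53 activation domain, had 26 reads over 6 accessions and was not tested. Ppm1d, the phosphatase WIP1 that resets p53 signalling and is a target of it, rose in both. It was at 48.7 and 55.5 CPM with DMSO, 68.2 and 62.4 with dTAG, 49.6 and 45.5 with LIF, and 84.9 and 82.6 without LIF. Its rise was 1.24-fold with dTAG (edgeR adjusted p = 0.00464) and 1.76-fold without LIF (edgeR adjusted p = 3.54e-09).

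Usp7, a deubiquitinase that acts on both Mdm2 and p53, fell 1.45-fold with dTAG (edgeR adjusted p = 2.35e-09) and 1.31-fold without LIF (edgeR adjusted p = 1.55e-07). Ppp1r13b, which encodes ASPP1, a cofactor that steers p53 to apoptotic targets, rose 1.30-fold with dTAG (edgeR adjusted p = 0.00541) and fell 2.39-fold without LIF (edgeR adjusted p = 7.33e-11). Cdkn2a, the locus of p16 and the Mdm2 inhibitor p19ARF, gave a log2 fold change of 0.01 with dTAG (SE 0.15) and fell 2.75-fold without LIF (edgeR adjusted p = 8.1e-09). Its overlapping transcripts share sequence, so these reads cover only what tells them apart.

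Of 43 other p53 targets listed, 29 were tested. With dTAG 9 rose, 6 fell and 14 were not called (median log2 fold change 0.14, against 0.00 for all tested genes), where 20.1% of all tested genes were called higher and 20.3% lower. Without LIF 9 rose, 9 fell and 11 were not called (median -0.12, against -0.02), near the 34% and 34.4% of all tested genes. Plk2, a polo-like kinase, rose from 53.9 and 54.5 to 125 and 129 CPM with dTAG, a 2.34-fold change (edgeR adjusted p = 1.93e-13). Plk3, another such kinase, rose from 0.28 and 0.97 to 9.19 and 8.54 CPM (edgeR adjusted p = 2.4e-09), with 2 and 11 reads in the DMSO libraries. Reads shared between transcripts of Plk3 were not counted. Without LIF both genes rose as well, Plk2 1.57-fold and Plk3 2.30-fold (edgeR adjusted p = 8.04e-09 and 0.0177). Both Plk genes were higher in both dTAG libraries than in every other library.

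Sfn, the epithelial cell cycle inhibitor 14-3-3 sigma, had the same order of groups as Perp. It stood at 35.5 and 33.1 CPM with DMSO, 68.5 and 61.8 with dTAG, 24.0 and 23.2 with LIF and 175 and 160 without LIF, 1.91-fold higher with dTAG and 7.09-fold higher without LIF (edgeR adjusted p = 2.7e-09 and 3.64e-20). Gadd45a, a stress sensor in growth arrest, rose 1.43-fold with dTAG and 2.11-fold without LIF (edgeR adjusted p = 0.00274 and 5.71e-10). Tigar, a phosphatase that lowers glycolytic flux, fell from 662 and 647 to 338 and 337 CPM with dTAG and from 475 and 451 to 156 and 160 CPM without LIF (1.94-fold and 2.93-fold; edgeR adjusted p = 3.76e-14 and 7.81e-19). Gdf15, a stress-induced cytokine, fell 2.90-fold with dTAG (edgeR adjusted p = 0.00137) and 16.9-fold without LIF (edgeR adjusted p = 7.36e-10). It had 9 and 10 reads in the dTAG libraries and 4 and 3 in those without LIF, and reads shared between its transcripts were not counted.

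**Figure D4:**
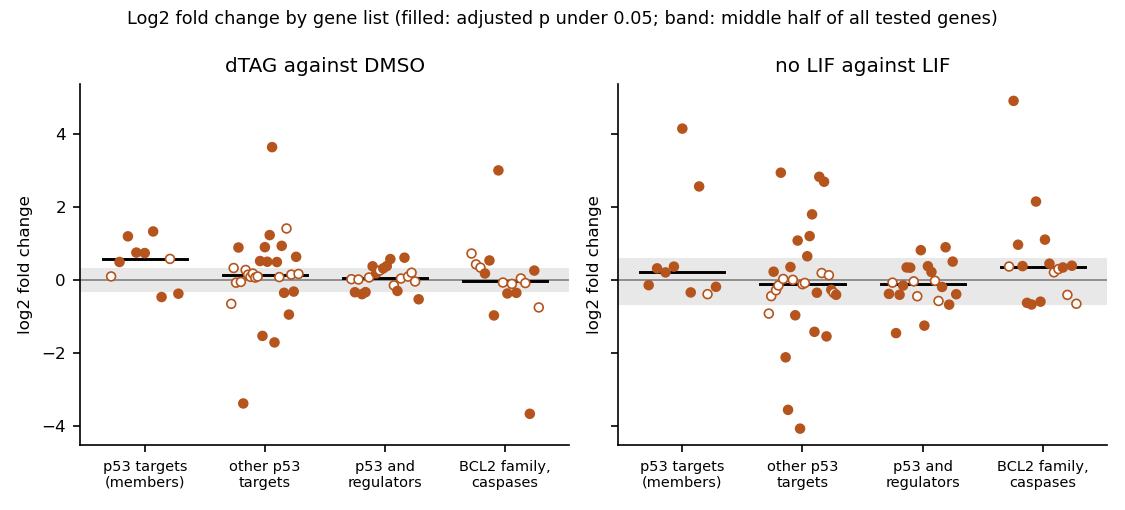
Log2 fold change (vertical axis) of tested genes in 4 lists with dTAG (left) and without LIF (right); filled points have an adjusted p under 0.05, black lines are list medians, and the grey band and line are the middle 50% and the median of all tested genes. List medians run from -0.02 to 0.57 with dTAG and from -0.12 to 0.35 without LIF. The 0.57 is the members' median, the value of Trp53inp1, which was not called.

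The BCL2 family and caspases, among which Bbc3, Pmaip1 and Bax act, were tested for 16 of 24 listed genes. With dTAG 4 rose, 4 fell and 8 were not called (median log2 fold change -0.02, against 0.00 for all tested genes), beside 20.1% of all tested genes called higher and 20.3% lower. Without LIF 8 rose, 3 fell and 5 were not called (median 0.35, against -0.02), beside 34% and 34.4%. Mcl1, the survival factor that NOXA binds, rose modestly in both, from 482 and 481 to 582 and 565 CPM with dTAG and from 569 and 571 to 743 and 747 CPM without LIF (edgeR adjusted p = 0.000186 and 1.4e-07). Bcl2, a survival factor with 2 accessions, was at or below 0.66 CPM in 6 libraries and at 13.4 and 14.7 CPM without LIF, 30.0-fold higher than with LIF, where it had 7 and 2 reads (edgeR adjusted p = 6.17e-13).

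Bid, a BH3-only protein that links death receptors to mitochondria, fell 1.97-fold with dTAG and 1.60-fold without LIF (edgeR adjusted p = 4.22e-13 and 1.86e-10). Hrk, another BH3-only gene, had 42 reads with DMSO and 3 with dTAG, 13.7-fold fewer per library size (4.39 to 69.3, exact 95% interval, counting error only) (edgeR adjusted p = 1.09e-05). Without LIF no change of Hrk was called (log2 fold change -0.41, edgeR adjusted p = 0.0939). With DMSO it was already 3.08-fold below WT with LIF (edgeR adjusted p = 1.53e-05). Bcl2l2, a survival factor, rose 1.44-fold with dTAG (edgeR adjusted p = 0.000186) and fell 1.55-fold without LIF (edgeR adjusted p = 2.88e-06). Bok, a relative of Bax, fell 1.30-fold with dTAG (edgeR adjusted p = 0.0478) and rose 2.15-fold without LIF (edgeR adjusted p = 2.35e-08). Bik, a BH3-only gene named here after its values were seen, was called higher with dTAG on few reads (0 and 4 with DMSO, 17 and 16 with dTAG, edgeR adjusted p = 0.00059). It was also called higher without LIF, 4.43-fold (edgeR adjusted p = 5.28e-05). Its level there, 4.10 and 3.55 CPM, was above the 1.86 and 1.77 CPM with dTAG.

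For the 3 tested members with the widest range of group means, the closest profiles among 7048 other genes of at least 5 CPM were sought, as the smallest distance of log2 CPM centred on the mean of the 8 libraries. Nearest to Pmaip1 were Phf19, a Polycomb-associated protein (distance 0.59), Rnf165 (0.75) and Dtx4 (0.78). Phf19 averaged 1.20 CPM with DMSO, 0.99 with dTAG, 6.75 with LIF and 31.2 without LIF. Nearest to Perp were Colec12, a scavenger receptor (0.36), Tmem88 (0.57) and Parva, an actin-linked focal adhesion protein (0.66). Colec12 averaged 8.14, 15.4, 6.56 and 113 CPM in the same order of groups. Nearest to Phlda3 were Efna4, an ephrin ligand (0.30), Elmo3 (0.46) and Wdr6 (0.48). Efna4 averaged 33.4, 74.7, 33.8 and 24.3 CPM. None of these 9 genes was on the p53 lists used here, and all 8 libraries enter each distance, so likeness reflects the 4 shared groups.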

How the data were processed

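The tables the authors deposited hold unnormalized read counts, 1 table per library and 1 line per RefSeq accession, from poly(A) RNA read over 40 bases from one end of a strand-marking library, per the labels' protocols. HISAT2, HTSeq and build mm9 are named per the submitters' processing notes; versions and the strand setting are not given in the sources used here. Reads shared by several accessions were set aside as ambiguous (42.2% to 43.0% of counted plus ambiguous reads) and stayed out of library sizes, so genes with several accessions are undercounted.

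Of 41565 accessions, 41451 were paired with a symbol (RefSeq GRCm38.p6 or GENCODE M21 tables, used for names) and counts were summed per symbol. edgeR 4.0.16 (R 4.3.3) used TMM, filterByExpr and 1 quasi-likelihood fit of 4 groups over 8 libraries, with 4 residual degrees of freedom. Standard errors were taken as the absolute log2 fold change over the root of the F statistic. Alternatives were other scalings, filters, DESeq2 1.42.0, features, a replicate block, each comparison's own libraries and leaving out each library. Replicates differed by more than sampling noise (chi-square over degrees of freedom 1.80 to 4.76).

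The members, gene lists and naming rules were chosen with earlier results of these data known. From the lists, Trp53, Mdm2, Mdm4 and Ppm1d were named, with the 3 other regulators of smallest adjusted p and the 4 genes of smallest adjusted p per response in each other list. Promoter sequences are RefSeq's, in GRCm38.p6.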

Additional observations from a re-analysis of the deposited data

How the results depend on the processing

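Every member's log2 fold change was recomputed under up to 17 alternatives. Calls of Phlda3 and Ccng1 in both responses, of Pmaip1 and Perp without LIF, of Btg2, Bbc3 and Zmat3 with dTAG, and of all 4 members lower in the tagged line held in every alternative run. Values changed sign in 4 cases, none of them called: Bax in DMSO against WT LIF without OCT4-FKBP DMSO replicate 2 (0.002) and without WT LIF replicate 1 (0.010), Ccng1 in the same comparison without WT LIF replicate 1 (-0.011), and Trp53inp1 in the LIF response without WT LIF replicate 2 (0.14). At leave-one-out these values ran from -0.061 to 0.010 for Bax, from -0.011 to 0.15 for Ccng1 and from -0.86 to 0.14 for Trp53inp1. Leaving out each library in turn gave 4 to 5 members higher and 1 to 2 lower with dTAG, 3 to 5 higher and 2 to 3 lower without LIF, and 0 to 1 higher and 4 lower in DMSO against WT LIF. The smallest counts were 3 higher without WT no LIF replicate 1 and 1 lower without OCT4-FKBP DMSO replicate 2. In DMSO against WT LIF, all tested genes called lower numbered 2283, against 1400 in DESeq2's Wald test and 1462 to 2226 at leave-one-out, the lowest without OCT4-FKBP DMSO replicate 2; the cause was not tested. Trp53inp1's difference between responses was called without OCT4-FKBP dTAG replicate 1 (1.27) and without WT LIF replicate 1 (1.43). The replicate block changed no member's call (5 higher and 2 lower with dTAG, 5 and 3 without LIF), and all genes called higher with dTAG went from 2077 to 2100. Same-numbered libraries share only a number, with correlations of their deviations of 0.015 for the dTAG groups and 0.030 for the LIF groups. Few reads limit what can be said of Trp53inp1 and Aen; reads shared between their accessions were not counted.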
